A study of Tupaia belangeri with 2 samples.

Results

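The genes followed here are 6 transcription factors by which striatal projection neurons and interneurons of the developing forebrain are told apart: ISL1, FOXP1, MEIS2 and SIX3 on the striatal side, and NPAS1 and SOX6 on the interneuron side. They were picked by gene name, with earlier results of these data known, and each name belonged to 1 of the 23975 annotated gene models. Whole brains of 2 tree shrew (Tupaia belangeri) embryos, taken at 4 to 5 postconceptional weeks, were dissociated and read out by single-cell RNA sequencing with 1 library each. Both embryos belonged to the same untreated group, so the comparisons lie between cell sets of the same embryos and not between conditions. No region was dissected, and a cell's region of origin is therefore known only through its transcripts. Unique molecular identifiers (UMIs), each counted once per captured transcript, numbered 38192755 in the 8408 cells of embryo 1 and 35785697 in the 9327 cells of embryo 2 that had at least 200 genes detected.

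Many, though not all, GABAergic neurons of the mammalian forebrain arise in the ganglionic eminences, where the DLX homeobox factors switch on the programme of inhibitory neurons. The lateral eminence gives rise to the projection neurons of the striatum, in which the LIM homeodomain factor ISL1, the forkhead factor FOXP1, the TALE homeodomain factor MEIS2 and the homeodomain factor SIX3 act. The medial eminence gives rise to interneurons of cortex and striatum, in which the HMG-box factor SOX6 acts downstream of LHX6, while the bHLH-PAS factor NPAS1 marks interneurons and neurons of the globus pallidus.

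All 6 genes were sparse. ISL1 had 179 UMIs in the cells of embryo 1 and 311 in those of embryo 2, and 2.05% of all cells held at least 1 ISL1 UMI. NPAS1 had 195 and 300 UMIs in 2.15% of cells, SIX3 had 483 and 706 in 4.73%, SOX6 had 580 and 704 in 5.94%, FOXP1 had 662 and 1075 in 7.79%, and MEIS2 had 1407 and 1621 in 13.6%. No cell held more than 8 UMIs of any of them, so levels are given for summed cells, as UMIs of the gene per 1000000 UMIs of those cells (CPM). In such sums, a change in the share of expressing cells and a change in the level per cell cannot be told apart. Levels of different genes are not compared with each other, since they depend on each transcript's length and capture.

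Where in the brain the 6 genes were counted was described over 17 clusters of cells, which were built without the 6 genes and without the gene lists used below. The largest cluster held 3268 cells (1373 and 1895) with markers that included DLX2, DLX5, GAD1 and GAD2, and is called DLX inhibitory neuron-like. This cluster contained 81.2% of all ISL1 UMIs and 67.5% of all NPAS1 UMIs. It contained 46.3% of those of SIX3 and 33.3% of those of SOX6, 24.5% of FOXP1 UMIs and 18.6% of MEIS2 UMIs. By cell number, the cluster made up 16.3% of embryo 1 and 20.3% of embryo 2, and its share of all UMIs is not given. Of the 6 genes, ISL1 and NPAS1, which stand on opposite sides, thus had the largest shares in the DLX cluster. Most UMIs of SIX3, SOX6, FOXP1 and MEIS2 lay outside it. Only 33.1% of the cells of this cluster had at least 2 UMIs over DLX1, DLX2 and DLX5. Such cells, whatever their cluster, contained 31.6% of ISL1 UMIs and 33.3% of NPAS1 UMIs. Cells with at least 1 DLX UMI contained 52.9% and 52.1%. Because the clusters come from the same cells, these levels are descriptions and carry no test.

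**Figure D1:**
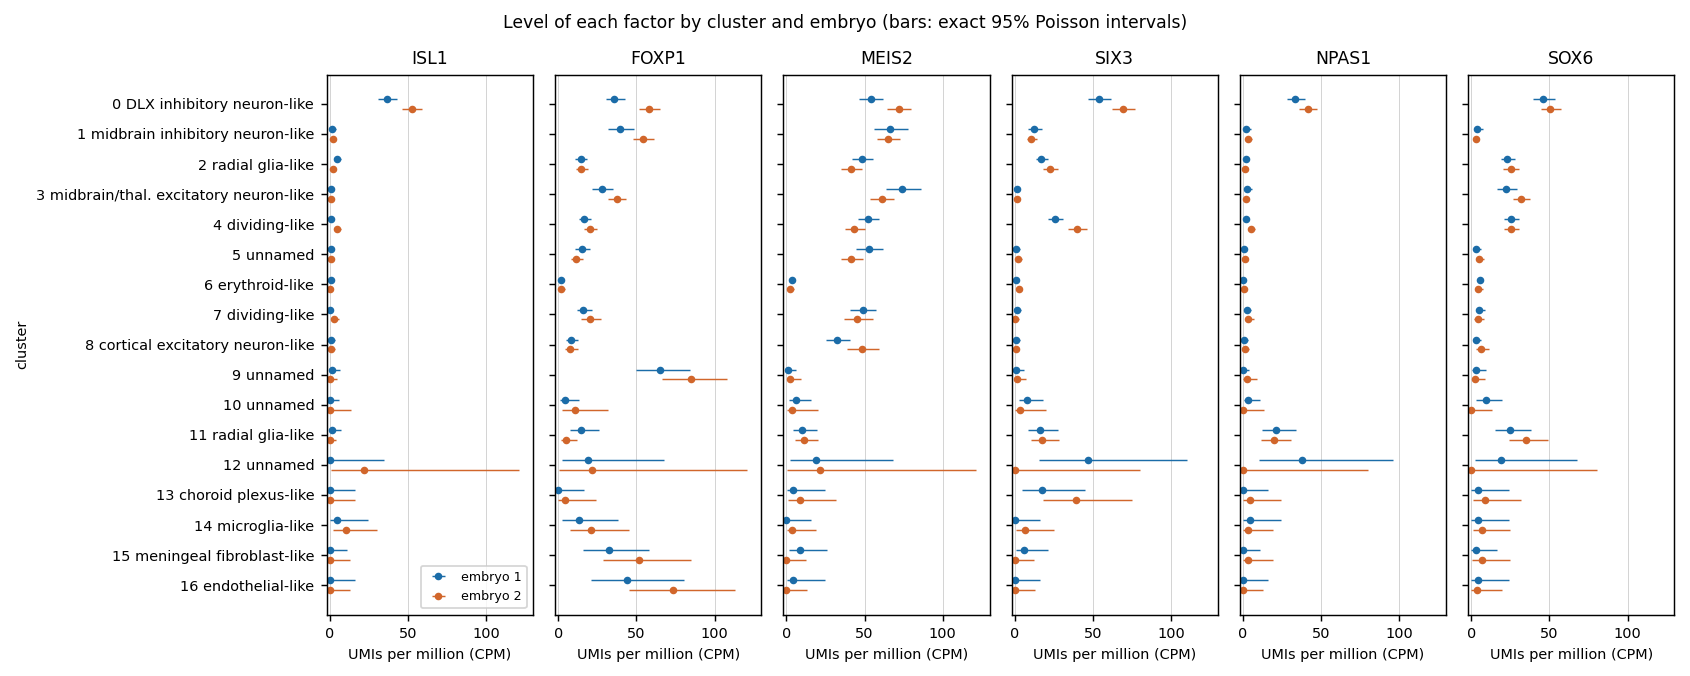
Level of each of the 6 genes in CPM (UMIs per 1000000 UMIs of the cluster) in the 17 cell clusters, with 1 point per embryo and exact 95% Poisson intervals as bars. The mean of the embryos is highest in the DLX inhibitory neuron-like cluster for ISL1, NPAS1, SIX3 and SOX6, whereas FOXP1 and MEIS2 reach similar levels in several other clusters.

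Among the striatal factors, ISL1 reached 36.3 CPM in embryo 1 and 52.3 CPM in embryo 2 in the DLX inhibitory neuron-like cluster. In the larger of the 2 radial glia-like clusters it was at 4.68 and 2.05 CPM, and in the midbrain inhibitory neuron-like cluster, whose markers include GATA and TFAP2 factors, at 1.28 and 1.64 CPM. Both embryos of the DLX cluster lay above both embryos of the cluster next in order, an unnamed one of 169 cells with few UMIs per cell, in which single counts of any gene give high CPM. SIX3 stood at 54 and 69.4 CPM in the DLX cluster, followed by the dividing cluster that shares DLX1 and DLX2 (25.7 and 40 CPM), choroid plexus-like cells (17.5 and 39.5 CPM, from 4 and 9 UMIs) and radial glia-like cells (17 and 22.3 CPM). All 3 lay below the DLX cluster, the dividing cluster lay above the radial glia-like cells, and the choroid plexus-like cells overlapped with both. In cortical excitatory neuron-like cells SIX3 was at 0.906 and 0.54 CPM.

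FOXP1 and MEIS2 gave no such order. The highest FOXP1 level was in an unnamed cluster with TCF7L2 and ZIC genes (65.2 and 85.2 CPM), followed by endothelial-like cells (43.9 and 73.6 CPM), midbrain inhibitory neuron-like cells (39.5 and 54.5 CPM) and the DLX cluster (36 and 57.9 CPM), and each of these overlapped with the next. Cortical excitatory neuron-like cells were lower, at 8.16 and 7.56 CPM. MEIS2 was at 74.2 and 60.9 CPM in midbrain or thalamus excitatory neuron-like cells, at 66.3 and 65 CPM in midbrain inhibitory neuron-like cells and at 53.8 and 71.8 CPM in the DLX cluster, and these 3 clusters did not separate beyond the spread of the embryos. MEIS2 was low in the smaller radial glia-like cluster with BCAN and VCAM1 (9.93 and 11.4 CPM) and in the unnamed cluster in which FOXP1 was highest (1.11 and 2.51 CPM).

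Of the interneuron factors, NPAS1 was at 33.4 and 41.6 CPM in the DLX cluster. The smaller radial glia-like cluster came next with 21.1 and 19.7 CPM and did not overlap with it, and the unnamed cluster with few UMIs per cell gave 37.6 and 0 CPM from 4 and 0 UMIs. Midbrain inhibitory neuron-like cells were at 2.13 and 3.5 CPM. SOX6 was at 46.2 and 50.6 CPM in the DLX cluster. It was also present in the smaller radial glia-like cluster (24.8 and 35.2 CPM), in midbrain or thalamus excitatory neuron-like cells (22.4 and 31.9 CPM), in the dividing cluster with DLX1 and DLX2 (25.3 CPM in each embryo) and in the larger radial glia-like cluster (23 and 25.4 CPM), and these 4 overlapped with one another. Midbrain inhibitory neuron-like cells held little SOX6, at 3.83 and 2.88 CPM.

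As a description of which other genes followed the same pattern, the level on the log2(CPM + 10) scale was correlated across 34 points, the 17 clusters in each of the 2 embryos, over 8205 named genes with at least 200 UMIs. The points of a cluster share its cells' depth and composition, and no p-value is given. The genes most like ISL1 were ECEL1 (Pearson r = 0.89), CDH9 (0.81) and the neuropeptide precursor POMC (0.80). Those like SIX3 included the homeobox gene DLX5 (0.78) and NPAS1 itself (0.71), and those most like NPAS1 were the LIM homeobox gene LHX8 (0.81), PRDX3 (0.78) and CRTAC1 (0.76). For SOX6 they were KCNH7 (0.78), VAX1 (0.75) and LHPL3 (0.75). For FOXP1 they were MPZL1 (0.81), FUT8 (0.80) and DICER1 (0.80), and for MEIS2 they were ZBTB20 (0.84), MPPD2 (0.83) and FSBP (0.81).

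The first tested comparison asked how the 6 genes differ between inhibitory cells of the forebrain type and other cells. DLX-positive cells were those with at least 2 UMIs over DLX1, DLX2 and DLX5, which gave 613 cells in embryo 1 and 1034 in embryo 2. Of these, 65.6% fell in the DLX inhibitory neuron-like cluster, 19.2% in dividing clusters and 9.29% in radial glia-like clusters. GAD-positive DLX-negative cells (1078 and 2033) had at least 2 UMIs over GAD1 and GAD2, the enzymes that make GABA, and none of the DLX genes. SLC17A6-positive cells (201 and 235) had at least 2 UMIs of this vesicular glutamate transporter and none of the DLX or GAD genes. UMIs were summed per embryo and cell set and compared with edgeR's quasi-likelihood test with the embryo as a block, with Benjamini-Hochberg adjustment over all gene models tested and a threshold of 0.05 on the adjusted p. All 6 genes passed the filter on low counts here and in the comparisons that follow. The cells of 1 embryo are not replicates, so n = 2 embryos throughout.

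**Figure D2:**
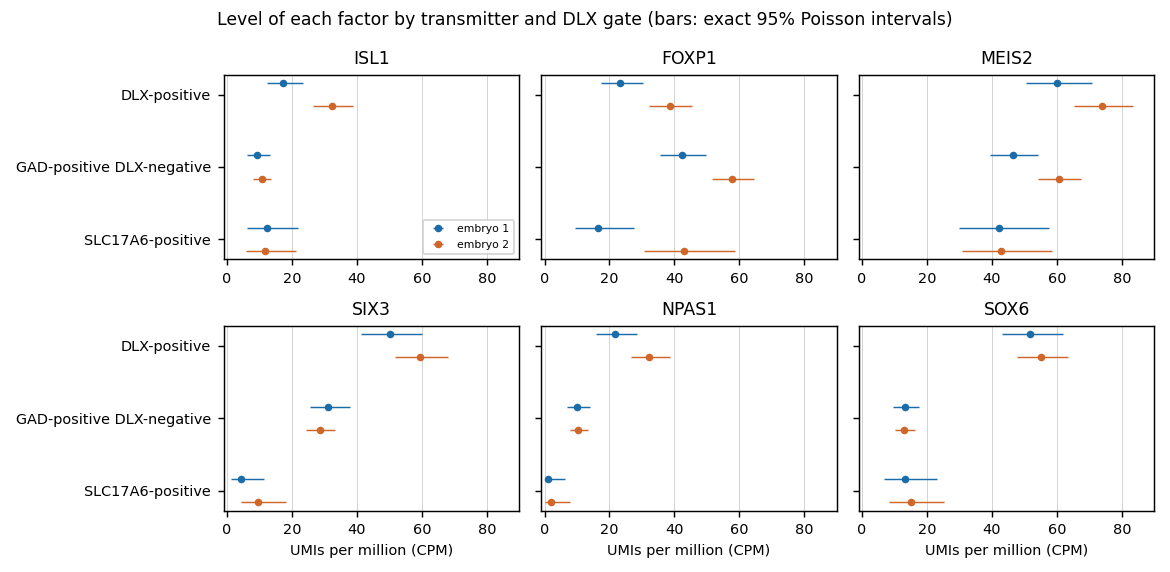
Level in CPM of the 6 genes in DLX-positive, GAD-positive DLX-negative and SLC17A6-positive cells, with 1 point per embryo and exact 95% Poisson intervals as bars. In both embryos ISL1, MEIS2, SIX3, NPAS1 and SOX6 are higher in DLX-positive cells than in the other 2 sets, and FOXP1 is higher in GAD-positive DLX-negative than in DLX-positive cells.

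Against GAD-positive DLX-negative cells, 5 of the 6 genes were higher in DLX-positive cells and FOXP1 was lower. The background was wide, as 26.8% of the 8532 gene models tested passed, 1267 of them higher and 1020 lower. SOX6 was at 51.8 CPM in embryo 1 and 55 CPM in embryo 2 in DLX-positive cells, against 13.1 and 12.8 CPM, a log2 fold change of 2.11 ± 0.15 (SE; edgeR adjusted p = 4.4e-11). NPAS1 was at 21.6 and 32.3 CPM against 10.1 and 10.3 CPM, a log2 fold change of 1.50 ± 0.20 (edgeR adjusted p = 2.4e-06). For both interneuron factors the 2 sets did not overlap. The share of all gene models without such overlap was not counted, here or in the comparisons below.

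Of the striatal factors, ISL1 was at 17.3 and 32.3 CPM in DLX-positive cells and at 9.23 and 10.7 CPM in GAD-positive DLX-negative cells, with a log2 fold change of 1.42 ± 0.21 (edgeR adjusted p = 9.8e-06). SIX3 was at 50.1 and 59.5 CPM against 31.2 and 28.5 CPM, a log2 fold change of 0.96 ± 0.14 (edgeR adjusted p = 6.6e-06). The ISL1 sets did not overlap, but the log2 fold change was 0.94 in embryo 1 alone and 1.65 in embryo 2 alone. The SIX3 sets did not overlap either. MEIS2 was at 60 and 73.8 CPM against 46.4 and 60.7 CPM, where embryo 1 of the first set lay just below embryo 2 of the second, with a log2 fold change of 0.37 ± 0.11 (edgeR adjusted p = 0.0126). FOXP1 was at 23.3 and 38.5 CPM against 42.3 and 57.8 CPM, a log2 fold change of -0.63 ± 0.15 (edgeR adjusted p = 0.0018). The FOXP1 and MEIS2 calls were lost without the block for the embryo (adjusted p = 0.141 and 0.116) and with DESeq2 (adjusted p = 0.21 and 0.509).

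Other cell types moved with this comparison. The summed level of 10 annotated midbrain inhibitory markers, among them GAD1 and GAD2, was 938 and 1147 CPM in DLX-positive cells and 2192 and 2759 CPM in GAD-positive DLX-negative cells, of which 21.2% lay in the DLX inhibitory neuron-like cluster. GAD1 and GAD2 chose the second set, and GAD2 alone was at 882 and 1029 CPM against 1281 and 1467 CPM. The larger part of each sum thus comes from a gene that chose a set. GAD1 was at 35.9 and 43.8 CPM against 132 and 146 CPM. In DLX-positive cells GAD1 and GAD2 made up nearly all of the sum, but in GAD-positive DLX-negative cells they did not. The summed level of the other midbrain inhibitory markers was therefore also higher in GAD-positive DLX-negative cells, in both embryos. The 8 markers of dividing cells summed to 6217 and 4575 CPM against 994 and 951 CPM, and the 9 annotated markers of radial glia to 806 and 657 CPM against 477 and 453 CPM. Their part in the differences was not tested. Red blood cell markers summed to 43796 and 16188 CPM against 78220 and 25624 CPM. With all cells left out in which haemoglobin genes made up at least 1% of UMIs, the log2 fold changes were close to those above, from -0.59 for FOXP1 to 2.17 for SOX6, and every call of the 6 genes was kept.

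Against SLC17A6-positive cells, 5 of the 6 genes were higher in DLX-positive cells. In this comparison, which shares its DLX-positive cells with the one above, 21.9% of all models passed, 937 higher and 928 lower. NPAS1 had 1 and 2 UMIs in SLC17A6-positive cells (1.11 and 2.15 CPM), against 50 and 115 UMIs in DLX-positive cells. Its ratio of levels was 19.5 in embryo 1 (95% counting interval 3.34 to 786) and 15 in embryo 2 (4.07 to 126), with edgeR adjusted p = 6.1e-07. SIX3 was at 4.43 and 9.66 CPM in SLC17A6-positive cells, a log2 fold change of 3.01 ± 0.30 (edgeR adjusted p = 2.6e-08). SOX6 was at 13.3 and 15 CPM, close to its level in the GAD-positive DLX-negative cells, with a log2 fold change of 1.97 ± 0.24 (edgeR adjusted p = 5.3e-07). The ranges of these 3 genes in DLX-positive cells, and that of ISL1, lay above those of both other sets.

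The remaining factors differed by less. ISL1 was at 12.2 and 11.8 CPM in SLC17A6-positive cells, with a log2 fold change of 1.12 ± 0.31 (edgeR adjusted p = 0.0108). It was 0.58 in embryo 1 alone and 1.49 in embryo 2 alone. The ISL1 call was lost without the embryo block (adjusted p = 0.0611) and with DESeq2 (adjusted p = 0.232). The 7 hypothalamic markers, a group of neurons in which ISL1 is also used, summed to 11.1 and 98.8 CPM in SLC17A6-positive cells and to 4.75 and 9.26 CPM in DLX-positive cells, and their part was not tested. In the midbrain or thalamus excitatory neuron-like cluster ISL1 was at 0.415 and 0.694 CPM. Of the SLC17A6-positive cells, 18.1% lay in the DLX inhibitory neuron-like cluster, and the part of these cells was not tested either. MEIS2 was at 42.1 and 42.9 CPM in SLC17A6-positive cells, a log2 fold change of 0.71 ± 0.17 (edgeR adjusted p = 0.00256), and missed the threshold with DESeq2 (adjusted p = 0.0876). FOXP1 was at 16.6 and 42.9 CPM in SLC17A6-positive cells, on either side of its levels in DLX-positive cells, and did not pass (log2 fold change 0.11, 95% interval -0.37 to 0.60, edgeR adjusted p = 0.806).

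Genes of the same 2 neuron classes were read from 2 further lists. Of 20 genes known in striatal projection neurons, 15 were annotated by that name and 7 had enough UMIs to be tested between DLX-positive and GAD-positive DLX-negative cells. Of these 7, 4 were higher, 1 was lower and 2 did not pass, where 26.8% of all models passed. Their median log2 fold change was 1.42 beside 0.00 over all models. The zinc finger factor SP9 was at 18.6 and 26.4 CPM against 2.68 and 3.43 CPM (log2 fold change 2.94), and the enkephalin precursor PENK at 41.9 and 44.1 CPM against 6.84 and 5.6 CPM (2.87). BCL11B, a zinc finger factor of projection neurons, was also higher (1.93), as was the tachykinin precursor TAC1 (1.42). FOXP2, a close relative of FOXP1, was at 13.8 and 25.8 CPM against 39.9 and 56.3 CPM and was lower (-1.19), as FOXP1 was. Mature striatal genes such as DRD2 and ADCY5 had no more than 3 UMIs each in all DLX-positive cells.

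Of 24 interneuron genes, 20 were annotated and 15 tested, of which 8 were higher, 2 lower and 5 not past the threshold, where 26.8% of all models passed, with a median log2 fold change of 0.72 beside 0.00 over all models. The medial eminence factors NKX2-1 (2.16), LHX6 (2.02) and LHX8 (1.51) were higher, and so were CCK, PROX1, ZEB2, NR2F1 and the peptide gene SST, which was at 245 and 248 CPM against 198 and 167 CPM (0.50). The calcium-binding protein gene CALB2 (-1.59) and the bZIP factor gene MAF (-0.77) were lower. Of 16 genes of progenitors and of GABA neurons in general, 8 were tested, of which 6 were higher and 2 lower with a median of 2.59, but DLX1, DLX2, DLX5, GAD1 and GAD2 set the cell sets and carry no information here. Against SLC17A6-positive cells, where 21.9% of all models passed, 4 of the 7 striatal genes were higher and 2 lower (median log2 fold change 1.37), and 5 of the 15 interneuron genes were higher and 2 lower (median 0.40), beside a median of 0.00 over all models. LHX6 and LHX8 had no UMI in SLC17A6-positive cells, so no fold is given for them, and the interneuron median was also 0.40 with both set to a floor of 3 counts per library.

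The central comparison asked whether the striatal and interneuron factors part within the DLX-positive cells. Cells with at least 1 ISL1 UMI and no NPAS1 UMI (32 in embryo 1 and 82 in embryo 2) were set against cells with at least 1 NPAS1 UMI and no ISL1 UMI (38 and 82). ISL1 and NPAS1 define these sets and are not results, whereas FOXP1, MEIS2, SIX3 and SOX6 were tested. Only 4 cells held both genes, all in embryo 2, with 416804 CPM of red blood cell markers, and they were left out. Of the ISL1-positive cells 75.4%, and of the NPAS1-positive cells 81.7%, lay in the DLX inhibitory neuron-like cluster, and median depths were 3296 and 3399 UMIs against 2629 and 2394 UMIs.

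SOX6 and FOXP1 moved in opposite directions between these sets. Of 3504 gene models tested, 21 passed (0.599%), 10 higher and 11 lower in ISL1-positive cells, and these 21 include ISL1 and NPAS1. SOX6 had 1 and 2 UMIs in ISL1-positive cells (8.56 and 6.26 CPM) against 14 and 30 UMIs in NPAS1-positive cells (118 and 110 CPM). The ratio of NPAS1-positive to ISL1-positive levels was 13.8 in embryo 1 (95% counting interval 2.1 to 583) and 17.6 in embryo 2 (4.47 to 152), and SOX6 passed with edgeR adjusted p = 0.00433. In DLX-positive cells with neither ISL1 nor NPAS1, SOX6 lay between the sets, at 50.5 and 55.7 CPM. The SOX6 call was kept in all 13 alternatives tested, with adjusted p from 2.0e-07 to 0.027.

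FOXP1 was at 68.5 and 147 CPM in ISL1-positive cells (8 and 47 UMIs) and at 33.7 and 18.4 CPM in NPAS1-positive cells (4 and 5 UMIs), while cells with neither gene were at 20.2 and 28.6 CPM. The log2 fold change was 2.44 ± 0.46 (95% interval 1.45 to 3.43, edgeR adjusted p = 0.0342). The sets did not overlap, but embryo 2 carried most of the difference, with a ratio of 8 (95% counting interval 3.2 to 25.8) against 2.03 (0.544 to 9.22) in embryo 1, or log2 fold changes of 3.02 and 1.11 when either was fitted alone. The FOXP1 call was kept in 7 of the 13 alternatives. It was lost without the embryo block (adjusted p = 0.0743), with DESeq2 (adjusted p = 0.34) and in 4 other choices of cells given in the closing section.

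MEIS2 and SIX3, the other striatal factors, did not pass between the same sets. MEIS2 was at 59.9 and 131 CPM in ISL1-positive against 42.2 and 33.1 CPM in NPAS1-positive cells, with a log2 fold change of 1.62 (95% interval 0.68 to 2.55, edgeR adjusted p = 0.189). SIX3 was at 111 and 87.6 CPM against 59 and 51.5 CPM, with a log2 fold change of 0.85 (0.00 to 1.71, edgeR adjusted p = 0.595). In both genes the 2 embryos of the ISL1-positive cells lay above those of the NPAS1-positive cells. The sets were also drawn from all cells of the DLX inhibitory neuron-like cluster whatever their DLX count, which gave 94 and 184 ISL1-positive against 93 and 146 NPAS1-positive cells. There 247 models passed, the log2 fold change of SOX6 was -4.56 (adjusted p = 4.2e-06) and that of FOXP1 was 2.42 (adjusted p = 7.0e-04), MEIS2 did not pass at 0.83 (adjusted p = 0.137), and SIX3 was at -0.10 (adjusted p = 0.906), so that no direction is given for SIX3.

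**Figure D3:**
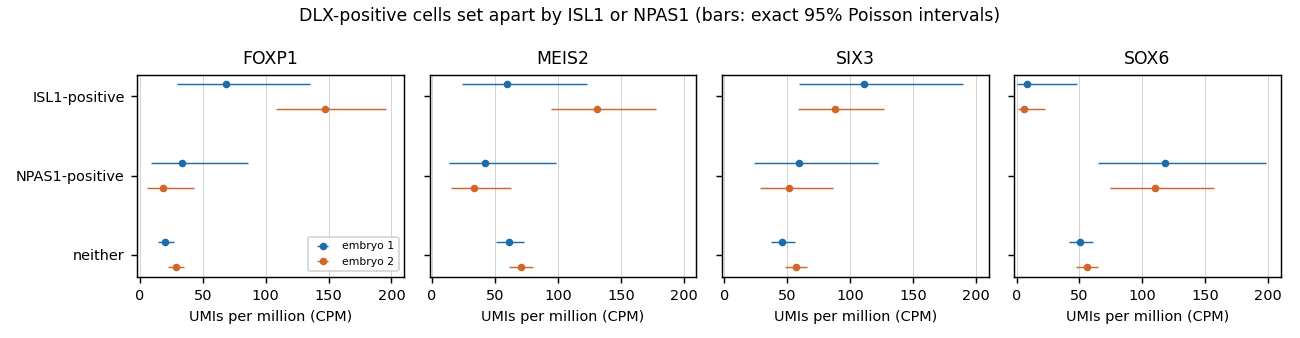
Level in CPM of FOXP1, MEIS2, SIX3 and SOX6 in ISL1-positive, NPAS1-positive and remaining DLX-positive cells, with 1 point per embryo and exact 95% Poisson intervals that cover counting error only. SOX6 is at 8.56 and 6.26 CPM in ISL1-positive and at 118 and 110 CPM in NPAS1-positive cells, and the FOXP1 level of ISL1-positive cells differs between embryos (68.5 and 147 CPM).

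Markers of other cells were compared between the same 2 sets. All 7 motor neuron markers, among them CHAT and MNX1, were at 0 in both sets. Of the 7 hypothalamic markers POMC, SIM1, OTP, HMX3, SIX6 and NKX2-2 were at 0 in the ISL1-positive cells. Their sum was 8.56 and 0 CPM there and 0 and 7.35 CPM in the NPAS1-positive cells. A count of 0 allows up to 25.7 and 9.38 CPM in ISL1-positive and up to 25.3 and 11 CPM in NPAS1-positive cells. In all DLX-positive cells the 7 hypothalamic markers summed to 4.75 and 9.26 CPM. These counts are too few to show whether either set holds hypothalamic or motor neurons. Markers of dividing cells summed to 3305 and 3532 CPM in ISL1-positive and to 1905 and 3900 CPM in NPAS1-positive cells, and red blood cell markers to 81245 and 810 CPM against 51416 and 790 CPM. Microglial markers were at 0 and 15.6 CPM against 8.43 and 544 CPM. Granule neuron markers summed to 274 and 188 CPM in ISL1-positive and to 84.3 and 158 CPM in NPAS1-positive cells. Meningeal fibroblast markers were at 51.4 and 6.26 CPM against 16.9 and 0 CPM, and choroid plexus markers at 128 and 34.4 CPM against 50.6 and 47.8 CPM. The part of these markers in the differences was not tested. Without the haemoglobin-rich cells, the log2 fold change of FOXP1 was 2.44 (adjusted p = 0.0451) and that of SOX6 was -3.98 (adjusted p = 0.00502).

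Among the other genes that parted the 2 sets, those higher in ISL1-positive cells included PTGDS, a prostaglandin D synthase, at 240 and 294 CPM against 0 and 25.7 CPM (log2 fold change 3.98), the secretory granule gene CHGB at 171 and 113 CPM against 16.9 and 7.35 CPM (3.72) and ISLR2 at 85.6 and 138 CPM against 0 and 14.7 CPM (3.59). The cell cycle inhibitor gene CDKN1C was at 454 and 335 CPM against 33.7 and 140 CPM (1.86), and ATBF1, CNTNAP2 and CKB were higher by 1.70, 1.34 and 1.16. Those lower in ISL1-positive cells included PLST at 8.56 and 9.38 CPM against 211 and 91.9 CPM (-3.77), ZN536 (-2.55), the bHLH factor gene TCF4 at 77.1 and 43.8 CPM against 278 and 250 CPM (-2.25), PDE4DIP (-2.01), NETO2 (-1.20) and CAMK2N1 (137 and 213 CPM against 371 and 393 CPM). The nuclear receptor gene NR2F2, known in interneurons of the caudal eminence, was at 25.7 and 31.3 CPM against 92.7 and 165 CPM (-2.23, edgeR adjusted p = 0.0209). It was the only gene to pass of 6 interneuron genes tested here, where 0.599% of all models passed. The 5 others had values of -2.22 (LHX8), -1.45 (SST), -0.95 (ZEB2), -0.85 (NR2F1) and 0.63 (TOX2), with a median over the 6 of -1.20 beside 0.00 over all models. Several of these differed between embryos, as SST was at 17.1 and 263 CPM in ISL1-positive cells (log2 fold changes of -5.45 in embryo 1 alone and -0.43 in embryo 2 alone), and the values were -0.18 and -1.21 for NR2F1, -0.30 and -1.21 for ZEB2 and -0.20 and 2.34 for TOX2. Only PENK of the striatal genes had enough UMIs, and it did not pass, nor did any of 8 progenitor and shared genes, whose median was 0.00.

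Co-detection in single DLX-positive cells described every pair of the 6 genes and not only those with ISL1 or NPAS1. It draws on the same cells and UMIs as the comparison above and is not independent of it. Each cell was thinned to 2000 UMIs, because deeper cells hold more of every gene, and 488 and 782 cells were deep enough. After thinning, ISL1 was found in 3.28% and 4.99% of cells (5.22% and 8.32% unthinned), NPAS1 in 3.89% and 4.35%, FOXP1 in 4.1% and 6.39%, SIX3 in 6.76% and 9.97%, SOX6 in 10.2% and 8.7%, and MEIS2 in 11.1% and 13%. In cortical excitatory neuron-like cells thinned to the same depth (unthinned median 4172 UMIs), which are not known to use ISL1, NPAS1 or SIX3, ISL1 was found in 0% and 0.238% of cells, NPAS1 and SIX3 in none of 430 and 420 cells, and SOX6 in 0.465% and 1.19%, while MEIS2 was found in 6.05% and 9.29%. A count of 0 in 430 or 420 cells allows shares of up to 0.698% and 0.714%. FOXP1 was found in 1.63% and 1.19% of them. The intervals of ISL1, NPAS1, SIX3 and SOX6 lay above those of this background, and those of MEIS2 overlapped with it. For FOXP1 the interval of embryo 2 in DLX-positive cells (4.78% to 8.34%) lay above it, and that of embryo 1 (2.52% to 6.26%) overlapped with the 0.657% to 3.33% of embryo 1 in the cortical cells. Unthinned median depths were 2997 and 2816 UMIs in DLX-positive cells. Other classes thinned to the same depth held more of some of these genes than the cortical cells. FOXP1 was found in 7.35% and 9.04% of midbrain inhibitory neuron-like cells, and SOX6 in 5.78% and 5.86% of radial glia-like cells. ISL1 was found in no more than 0.758% of cells in either class.

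FOXP1 was found in 18.8% of ISL1 cells of embryo 1 (3 of 16, exact 95% interval 4.05% to 45.6%) against 3.6% of cells without ISL1, and in 28.2% of ISL1 cells of embryo 2 (11 of 39, 15% to 44.9%) against 5.25%. SOX6 was found in 21.1% and 20.6% of NPAS1 cells against 9.81% and 8.16% of cells without NPAS1. By contrast, SOX6 was found in 0 of 16 (which allows up to 18.8%) and 1 of 39 ISL1 cells, in 1 of 20 and 0 of 50 (up to 6%) FOXP1 cells, in 2 of 54 and 1 of 102 MEIS2 cells, and in 1 of 33 and 2 of 78 SIX3 cells, against 9.02% to 11.1% of the cells without the other gene. The share of cells with SOX6 was therefore lower beside each striatal factor and higher beside NPAS1 in both embryos, although the counts are small and many of the intervals overlap. Within the DLX inhibitory neuron-like cluster, none of the 56 and 94 FOXP1 cells held SOX6, which allows up to 5.36% and 3.19%.

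The size of these relations depended on the random draw and the depth of the thinning. Over 6 draws at 2000 UMIs, the odds ratio of ISL1 and FOXP1 (geometric mean of both embryos, 0.5 added to each count) ranged from 3.75 to 6.97, with the draw above at the upper end, and it was 6.52 when thinned to 1000 UMIs, 1.82 when thinned to 3000 and 3.87 without thinning. The odds ratio of NPAS1 and SOX6 ranged from 2.05 to 3.12 over the draws and was 2.97 at 1000 UMIs, 3.96 at 3000 and 2.32 without thinning. That of FOXP1 and SOX6 ranged from 0.144 to 0.312 over the draws, but was 0.613, 0.455 and 0.532 at these other depths. Over the draws, ISL1 and SOX6 gave 0.281 to 0.715 and MEIS2 and SOX6 0.129 to 0.318. ISL1 and MEIS2 gave 1.23 to 2.25 and ISL1 and SIX3 1.27 to 2.84, values too near 1 for the counts behind them. The values of NPAS1 and SOX6 also rest on few cells, 4 of 19 and 7 of 34 NPAS1 cells. FOXP1 and MEIS2 gave 1.73 to 3.47 over the draws. In the draw above, MEIS2 and SIX3 gave 2.94 and 2.44 in embryos 1 and 2. Across the sides, FOXP1 and NPAS1 gave 3.49 and 0.633, and MEIS2 and NPAS1 1.72 and 0.496, so that no direction is given for either pair. ISL1 and NPAS1 themselves were found together in 0 of 16 and 2 of 39 ISL1 cells, against 4.03% and 4.31% of the cells without ISL1, so that these counts do not show whether the 2 genes avoid each other. Of the 15 pairs, 8 had an odds ratio above 1 in both embryos in the draw above. This number ranged from 6 to 8 over the draws and was lower when thinned to 1000 or 3000 UMIs. The share of such pairs among all genes was not counted, so the number is not read as a result. Among the 8 pairs of the draw above, that of SIX3 and NPAS1 crosses the 2 sides, with odds ratios of 1.99 and 1.34. Within the DLX inhibitory neuron-like cluster that pair gave 0.947 and 2.2. All of these are descriptions over cells of 2 embryos, and no test is given.

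The DLX-positive cells were clustered again, without the 6 genes and the listed genes. The highest mean levels of the 2 sides lay in different subclusters, although other subclusters held genes of both sides. A subcluster of 502 cells (172 and 330) met the interneuron markers SST, NR2F1, NR2F2 and ZEB2 and is called interneuron-like. NPAS1 was at 77.1 and 91.5 CPM in it and SOX6 at 165 and 158 CPM, for both genes the highest of the 5 subclusters with more than 20 cells. The striatal factors were at their lowest there, with ISL1 at 0 and 1.39 CPM (0 UMIs in embryo 1 allow up to 7.98 CPM), MEIS2 at 13.3 and 27.7 CPM and SIX3 at 5.32 and 18 CPM. FOXP1 was at 0 and 4.16 CPM. SST itself was at 1228 and 610 CPM and LHX6 at 21.3 and 23.6 CPM. NKX2-1, at 42.5 and 40.2 CPM, was not particular to this subcluster. It was at 44 and 44.5 CPM in the subcluster led by TTR, and at 13.1 and 4.67 CPM in that led by ANO3. LHX8 was at 21.3 and 23.6 CPM here and higher, at 69.8 and 30.4 CPM, in the subcluster led by ANO3. In those led by LHX1 and by mitotic genes, LHX8 was at 34.5 and 37.8 CPM and at 6.66 and 2.07 CPM.

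A subcluster of 275 cells (95 and 180), led by ANO3, CHGB, FAT4, FOXP1, GABRA4 and SYT6, held the highest mean levels of all 4 striatal factors. ISL1 was at 48 and 107 CPM in it, FOXP1 at 100 and 145 CPM, MEIS2 at 140 and 189 CPM and SIX3 at 91.6 and 119 CPM. SOX6 was at 8.72 and 21 CPM, and NPAS1 was at 43.6 and 18.7 CPM. NPAS1 was thus not low here, as its mean of 31.2 CPM was exceeded only in the interneuron-like subcluster (84.3 CPM). It was not named as striatal, because of the striatal markers only FOXP2 (43.6 and 67.7 CPM) was found in at least 10% of its cells and exceeded the remaining DLX-positive cells by 2 times or more. BCL11B was at 34.9 and 21 CPM, PENK at 30.5 and 44.4 CPM and EBF1 at 4.36 and 25.7 CPM. BCL11B, EBF1 and FOXP2 had their highest mean here, but other genes of the striatal list did not. PENK was at 86.6 and 98.2 CPM in the subcluster led by mitotic genes. SP9 was at 26.2 and 14 CPM here and at 45.2 and 52.7 CPM in the interneuron-like subcluster. TAC1 was at 4.36 and 9.34 CPM here and at 18.6 and 31.1 CPM in the subcluster led by LHX1. NR2F2 was at 13.1 and 0 CPM, and LHX8 at 69.8 and 30.4 CPM.

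**Figure D4:**
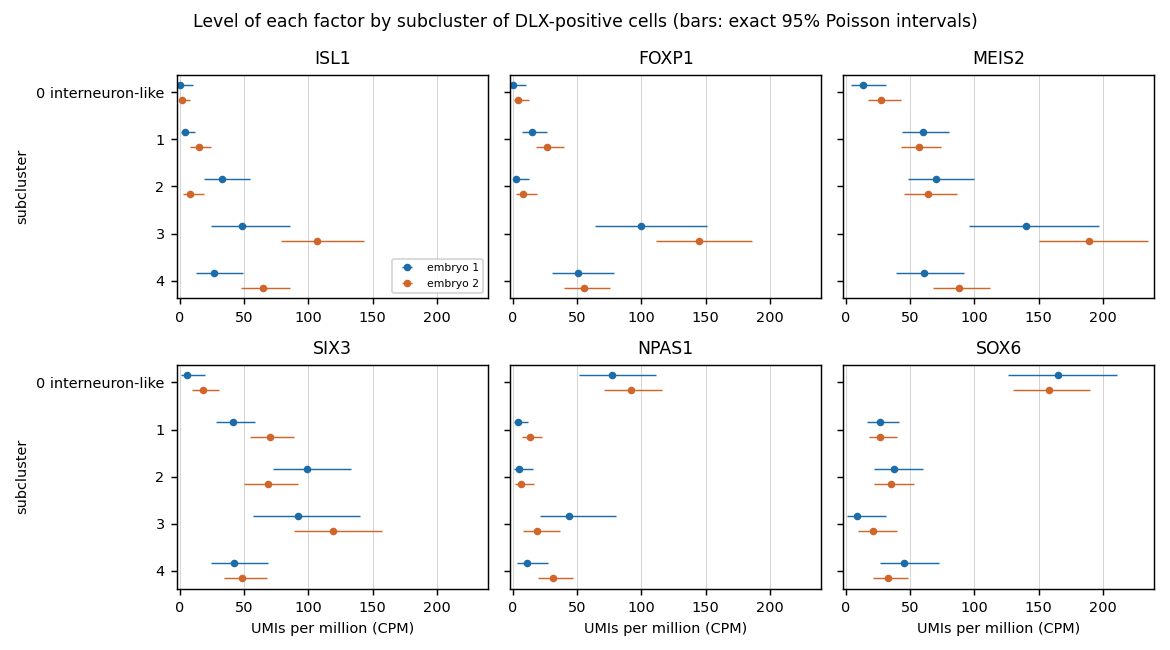
Level in CPM of the 6 genes in the subclusters of DLX-positive cells, with 1 point per embryo and exact 95% Poisson intervals as bars. By the mean of the embryos, ISL1, FOXP1, MEIS2 and SIX3 peak in the subcluster of 275 cells, NPAS1 and SOX6 in the interneuron-like subcluster of 502 cells. In embryo 1 SIX3 is higher in the subcluster led by replication genes (99 CPM against 91.6 CPM).

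The other subclusters were mixed. One of 256 cells led by LHX1 and SYT4 held both sides, with ISL1 at 26.5 and 64.9 CPM, FOXP1 at 50.4 and 55.4 CPM, NPAS1 at 10.6 and 31.1 CPM and SOX6 at 45.1 and 32.4 CPM, and its ISL1 range overlapped with that of the subcluster of 275 cells. In a subcluster of 317 cells led by mitotic genes, SIX3 (41.3 and 70.3 CPM) and MEIS2 (60 and 56.9 CPM) were present, whereas ISL1 (4 and 14.5 CPM) and NPAS1 (4 and 13.4 CPM) were low. A subcluster of 278 cells led by TTR and by the replication genes E2F1, UNG and MCM4 had SIX3 at 99 and 68.4 CPM, which overlapped with the subcluster of highest SIX3, and FOXP1 at only 2.2 and 7.95 CPM. FOXP1 and MEIS2 peaked in the same subcluster as ISL1, and SOX6 in the same as NPAS1, also at a resolution of 1.0, with 10 components and in either embryo alone. With embryo 1 alone, SIX3 was highest in the subcluster led by replication genes.

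The last comparison followed the genes from dividing to non-dividing DLX-positive cells. Non-dividing cells (249 and 524) had no UMI of MKI67, TOP2A, CENPF, NUSAP1 and TPX2, and dividing cells (182 and 265) had at least 3. Of the non-dividing cells 88.6%, but of the dividing cells only 11.4%, lay in the DLX inhibitory neuron-like cluster. The part of this difference was not tested. Of 5953 gene models tested, 39.1% passed, 1041 higher and 1286 lower in non-dividing cells. With library totals in place of TMM scaling, the median of all models moved from 0.02 to 0.19 on the log2 scale and 1548 of 2474 calls were higher, so that small changes have no fixed direction. NPAS1 was at 30.7 and 48 CPM in non-dividing against 5.83 and 13 CPM in dividing cells, a log2 fold change of 1.87 ± 0.32 (edgeR adjusted p = 1.0e-04). ISL1 was at 29.3 and 38.5 CPM against 2.91 and 13.8 CPM, where embryo 1 had 3 UMIs in dividing cells, a log2 fold change of 1.74 ± 0.35 (edgeR adjusted p = 5.5e-04). The ISL1 value was 3.10 in embryo 1 alone and 1.29 in embryo 2 alone. ISL1 and NPAS1 were thus both higher in non-dividing cells, by more than the shift of the median.

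SOX6 was at 72.5 and 75.7 CPM against 32.1 and 30.7 CPM, a log2 fold change of 1.09 ± 0.19 (edgeR adjusted p = 1.1e-04). FOXP1 was at 34.9 and 50.7 CPM against 12.6 and 23 CPM, a log2 fold change of 1.07 ± 0.25 (edgeR adjusted p = 0.00176). Both missed the threshold with DESeq2 (adjusted p = 0.0773 and 0.227). Shares of cells with a UMI, not corrected for the greater depth of dividing cells, differed less. They were 6.83% and 8.59% against 5.49% and 8.3% for FOXP1, and 16.5% and 15.6% against 15.9% and 10.9% for SOX6. For MEIS2 the share was lower in non-dividing cells, at 15.3% and 15.5% against 23.1% and 20.4%. For ISL1 and NPAS1 it was higher in both embryos. MEIS2 and SIX3 did not pass. MEIS2 was at 73.9 and 75 CPM against 52.5 and 59.8 CPM (log2 fold change 0.21, 95% interval -0.17 to 0.59, edgeR adjusted p = 0.382), and SIX3 at 47.4 and 63.5 CPM against 48.6 and 60.5 CPM (-0.12, -0.50 to 0.27, edgeR adjusted p = 0.644, and 0.05 with library totals). The intervals of MEIS2 and SIX3 end below the values found for ISL1 and NPAS1, although the difference between genes was not tested.

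**Figure D5:**
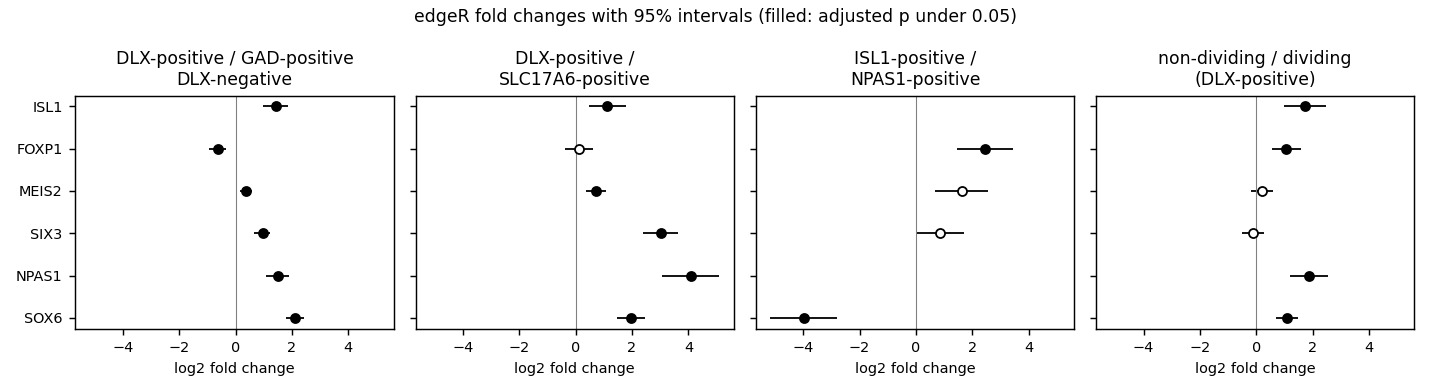
Log2 fold changes of the 6 genes with 95% intervals in the 4 comparisons from edgeR's quasi-likelihood fit (ISL1 and NPAS1 are left out where they define the sets). SOX6 is higher in DLX-positive cells than in both other sets and lower in ISL1-positive than in NPAS1-positive cells, while the FOXP1 change has a different sign against GAD-positive DLX-negative cells than between ISL1-positive and NPAS1-positive cells.

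Genes of the lists moved in both directions between non-dividing and dividing cells, where 39.1% of all models passed. Of 8 interneuron genes tested, SST (639 and 473 CPM against 9.71 and 23 CPM, log2 fold change 4.82), LHX8 (3.15), NR2F2 (1.32) and NR2F1 (0.64) were higher, ZEB2 was lower (-0.55) and 3 did not pass, with a median of 0.75 beside 0.02 over all models. The NR2F1 difference came from embryo 2 (105 against 47.5 CPM, 0.96 alone), since embryo 1 was at 57.2 against 50.5 CPM (0.01 alone), and that of ZEB2 was -0.97 in embryo 1 alone and -0.29 in embryo 2 alone. Of 4 striatal genes tested, SP9 was higher (0.97, or 1.79 and 0.57 in either embryo alone), PENK was lower at 20.9 and 13.5 CPM against 69.9 and 88.1 CPM (-2.51) and 2 did not pass, with a median of 0.91. Of 8 progenitor and shared genes, those that were higher included GAD1 (2.05) and GAD2 (0.69). DLX1, DLX2 and DLX5 chose the cells of both sets, and MKI67 and TOP2A parted them, so that their values carry no information. Dividing cells were deeper, with medians of 4633 and 4335 UMIs against 2511 and 2370, and radial glia markers summed to 1110 and 865 CPM in them against 431 and 509 CPM. Red blood cell markers summed to 28321 and 697 CPM in dividing and to 56711 and 22695 CPM in non-dividing cells. Without the haemoglobin-rich cells the log2 fold changes of ISL1 and NPAS1 were 1.81 and 1.86, and the part of the other markers was not tested.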

How the data were processed

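Whole brains of 2 tree shrew embryos were profiled with the 10x Chromium single-cell kit, 1 library each. The authors ran Cell Ranger 3.1.0 with the TS_2.0 assembly and its annotation, and deposited raw UMI counts per gene model and barcode, without normalization. The tables hold 9241 and 9685 barcodes (41868023 and 38077767 UMIs), the cell numbers given in the study's methods and fewer than the total in its results, and 18 barcode sequences occur in both. Sequences and genome positions of the genes were not used here.

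Cells with at least 200 genes were kept and no doublet call was applied, since Scrublet marked 0 and 1 cells at its own threshold. They were clustered with scanpy 1.11.5 and leidenalg 0.10.2 (2000 variable genes without the 6 genes and the lists, 20 components, 20 neighbours, resolution 0.5). A cluster was called "X-like" when it met at least 3 markers of a type, each seen in 10% or more of the cluster and raised 2 times or more over the remaining cells, and more than of any other type. Clusters named here may differ from those of the study. DLX6 and SLC17A7 are not annotated by these names. UMIs summed per embryo and cell set were compared by the quasi-likelihood test of edgeR 4.0.16 under R 4.3.3, with TMM scaling, filterByExpr, the embryo as block and Benjamini-Hochberg adjustment over all models tested, after a test on simulated data. DESeq2 1.42.0 was an alternative. Levels have exact 95% Poisson intervals and shares exact 95% Clopper-Pearson intervals. These, and limits of 3 counts where none was seen, cover counting error only. Same-numbered cell sets come from the same embryo, and their deviations correlated at 0.19 to 0.54 over 9 pairs of sets.

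The 6 genes, the lists, the cell sets and the tests were chosen with earlier results of these data known. Besides the 6 genes and list genes, the text names the 8 largest changes each way between ISL1-positive and NPAS1-positive cells among named models past the threshold, with mean log2 CPM above 4 and the same direction in both embryos, and the 3 genes most like each of the 6, of which 1 gene is not reported here. Further choices on scaling, cell depth, cells of the DLX cluster, dividing cells and thinning draws were added after seeing the data. Figures were drawn with matplotlib 3.10.9.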

Additional observations from a re-analysis of the deposited data

Results flagged for a closer look

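Barcodes with fewer than 200 genes detected were used in no comparison. In embryo 1 there were 833 of them, and 3 of the 6 genes lay above 0.816 CPM, the level up to which 0 counts would be possible: FOXP1 with 1.36 CPM (5 UMIs), MEIS2 with 1.63 CPM (6 UMIs) and SOX6 with 1.63 CPM (6 UMIs). These levels were below those in the cells of the same embryo, which were 17.3, 36.8 and 15.2 CPM.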

How the results depend on the processing

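With 2 embryos, leaving out 1 gives values with no test. Between embryos these ran, against GAD-positive DLX-negative cells, from 0.94 to 1.65 (ISL1), -0.82 to -0.53 (FOXP1), 0.72 to 1.11 (SIX3) and 1.13 to 1.70 (NPAS1) on the log2 scale. Against SLC17A6-positive cells they ran from 0.58 to 1.49 (ISL1), -0.12 to 0.57 (FOXP1) and 2.66 to 3.56 (SIX3). Between ISL1-positive and NPAS1-positive cells they ran from 1.11 to 3.02 (FOXP1) and 0.60 to 2.01 (MEIS2), and between non-dividing and dividing cells from 1.29 to 3.10 (ISL1) and 1.69 to 2.20 (NPAS1). The cell sets of 1 embryo are paired by that embryo. With no replicate block, the models called fell from 2287 to 1184 against GAD-positive DLX-negative cells and from 1865 to 1123 against SLC17A6-positive cells. FOXP1 (-0.62, adjusted p = 0.141) and MEIS2 (0.37, adjusted p = 0.116) in the first, ISL1 (1.13, adjusted p = 0.0611) in the second and FOXP1 between ISL1-positive and NPAS1-positive cells (2.43, adjusted p = 0.0743) no longer passed, and the block changed no other call of the 6 genes. DESeq2 called 751, 869 and 864 models in the GAD, SLC17A6 and division comparisons, and with it FOXP1 (-0.67, adjusted p = 0.21) and MEIS2 (0.38, adjusted p = 0.509) in the first, ISL1 (1.07, adjusted p = 0.232) and MEIS2 (0.71, adjusted p = 0.0876) in the second, FOXP1 (1.09, adjusted p = 0.227) and SOX6 (1.05, adjusted p = 0.0773) in the third and FOXP1 between ISL1-positive and NPAS1-positive cells (2.23, adjusted p = 0.34) did not pass. The last comparison gave 21 calls, but 50 without the filter on low counts, 51 with a DLX gate of at least 1 UMI, 36 in cells with 0 UMIs of the division genes and 247 in the DLX cluster. There FOXP1 also missed the threshold with at least 1000 genes per cell (2.09, adjusted p = 0.109), with the highest Scrublet scores left out (2.61, adjusted p = 0.057), in cells with 0 UMIs of the division genes (2.29, adjusted p = 0.0963) and in cells with at least 2000 UMIs (2.23, adjusted p = 0.0752), and SIX3 changed sign in the DLX cluster (-0.10). In the division comparison a DLX gate of at least 3 UMIs gave 1508 calls, a gate of at least 1 UMI let MEIS2 pass (0.34, adjusted p = 0.0323) and turned SIX3 to 0.05, as did library totals (0.05). The number of pairs with an odds ratio above 1 in both embryos was 4 when thinned to 1000 UMIs and 5 when thinned to 3000, and 6 to 8 over 6 draws at 2000. The number of genes with their highest mean in the DLX cluster was 3 to 6 over all clusterings. The cause of these changes was not tested.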
